A study of Livoneca redmanii with 3 samples.

Results

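The transcripts of the ubiquitin and proteasome system of the fish-parasitic isopod Livoneca redmanii were described over 3 RNA-seq libraries. Members were distinct assembled transcripts (contigs) whose assigned gene name began with PSMA to PSMD, UBE2, UBA or USP and a number, or whose description mentioned the proteasome or ubiquitin. Ribosomal proteins, ubiquinol enzymes, reverse transcriptases and ribonuclease H were left out. The rule used annotation text only and no measured value, and it found 152 of the 31922 contigs, which belonged to 131 of the 26084 assembled genes. The RNA came from whole specimens that had been collected from the tilapia Tilapia zilli in Lake Qarun, Egypt, and then kept in aquaculture. Control animals were held at 35 PSU and 26 °C. For the low-salinity group the water was taken down gradually to 8 PSU, and for the low-temperature group it was cooled to 10 °C. The labels leave out the temperature of the low-salinity tanks and the salinity of the cold tanks. Each condition was 1 library of whole animals, and no source used here gives the number of animals in a library. Nothing below was checked against replicates, and the intervals reflect counting error alone.

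Ubiquitin is a small protein that cells attach to other proteins as a tag, most often to send them to destruction. An activating enzyme (E1) charges it, a conjugating enzyme (E2) carries it and a ligase (E3) places it on the target, while deubiquitinases take it off again. Tagged proteins are unfolded and cut up by the 26S proteasome, which consists of a barrel-shaped 20S core with the protease sites inside and a 19S cap that binds, unfolds and feeds the substrate. The system works in nearly every eukaryotic cell and carries much of the turnover of damaged and short-lived proteins.

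The control, low-salinity and low-temperature libraries summed to 2142836, 1434390 and 2782324 estimated counts. Contigs described as reverse transcriptases, transposases, integrases, endonucleases or ribonuclease H took 45.1% of the control library, 53.4% of low salinity and 4.53% of low temperature. Of 8 markers of isopod tissue (actins, elongation factor, GAPDH, myosin, RPL4, vitellogenin and hemocyanin), 4 were at 0 in control, and the counts per marker ranged from 0 to 486 in control, from 0 to 227 in low salinity and from 1116 to 9592 in low temperature. No contig was named as a fish hemoglobin, parvalbumin, keratin or type I collagen. Apart from ACTB, with the 486 and 227, no isopod marker had more than 7 counts in control or low salinity. General markers of the animal were thus low in the same libraries as the members described here, and their part in the results below was not tested. In whole animals, fewer cells of a type and less RNA per cell cannot be told apart.

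The 152 ubiquitin and proteasome contigs had 14 control counts, 7 low-salinity counts and 9489 low-temperature counts. They took 0.341% of the low-temperature library (exact binomial 95% interval 0.334% to 0.348%), 0.000653% of control (0.000357% to 0.0011%) and 0.000488% of low salinity (0.000196% to 0.00101%). At the share seen in low temperature, the control library would have held 7308 such counts and the low-salinity library 4892. Every role was highest in low temperature, and the plot of summed counts shows this for the roles reported here.

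**Figure D1:**
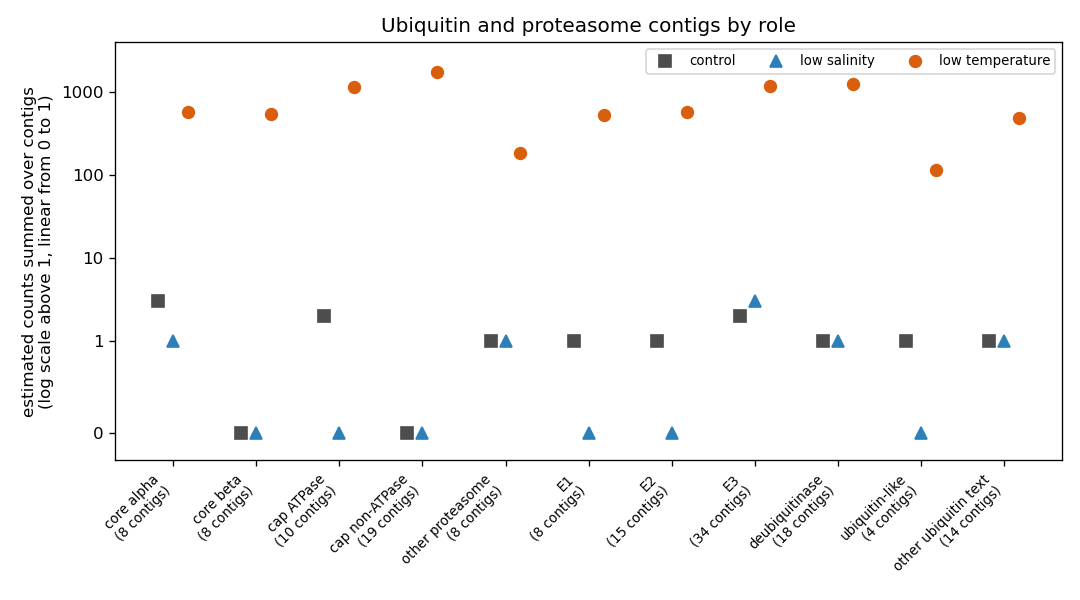
Estimated counts summed over the contigs of each role reported here (x axis, with the number of contigs) in the 3 libraries (y axis, log scale above 1 and linear from 0 to 1). Low temperature lies between 116 and 1746 for every role plotted, while control and low salinity lie between 0 and 3.

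With TMM scaling, a correction of library size that assumes most transcripts do not differ, the summed members were 2015-fold higher in low temperature than in control (exact conditional 95% interval 1201 to 3688). The size of this ratio depended on the scaling, with 522 by total counts, 365 by upper quartiles and 3915 by the median of ratios. Of the members, 89 averaged 10 counts or more across the libraries and entered the comparison of single contigs, where a contig passed at a 2-fold difference. All 89 passed as higher in low temperature, against 49.6% of all 8563 tested contigs, and none passed as lower, against 43% of them. Most tested contigs thus differed by 2-fold or more, so the data did not meet the assumption of TMM. The median log2 ratio was 8.00 for the 89 members and 0.83 for all tested contigs. With members at 0 in control set to 3 counts, the median was 6.29. The filter fixed this direction, since 73 of the 89 were at 0 in both other libraries and entered only through low temperature, and the lowest low-temperature count among the 89 was 30. The 63 members under the filter had at most 29 counts in low temperature. Of all 152, 131 were at 0 in both control and low salinity, and 2 were at 0 in every library.

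The 20S core was complete by KEGG number, with counts for every core subunit in low temperature. A search by KEGG number found contigs for all 7 alpha and all 7 beta subunits, and for 32 of the 33 subunits of the textbook 26S particle. The subunit without a contig was the small cap protein SEM1 (Rpn15). The finding says only that no contig carried its KEGG number. The files hold no transcript lengths, and longer transcripts collect more counts, so the order of subunits by count is not an order of expression.

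**Figure D2:**
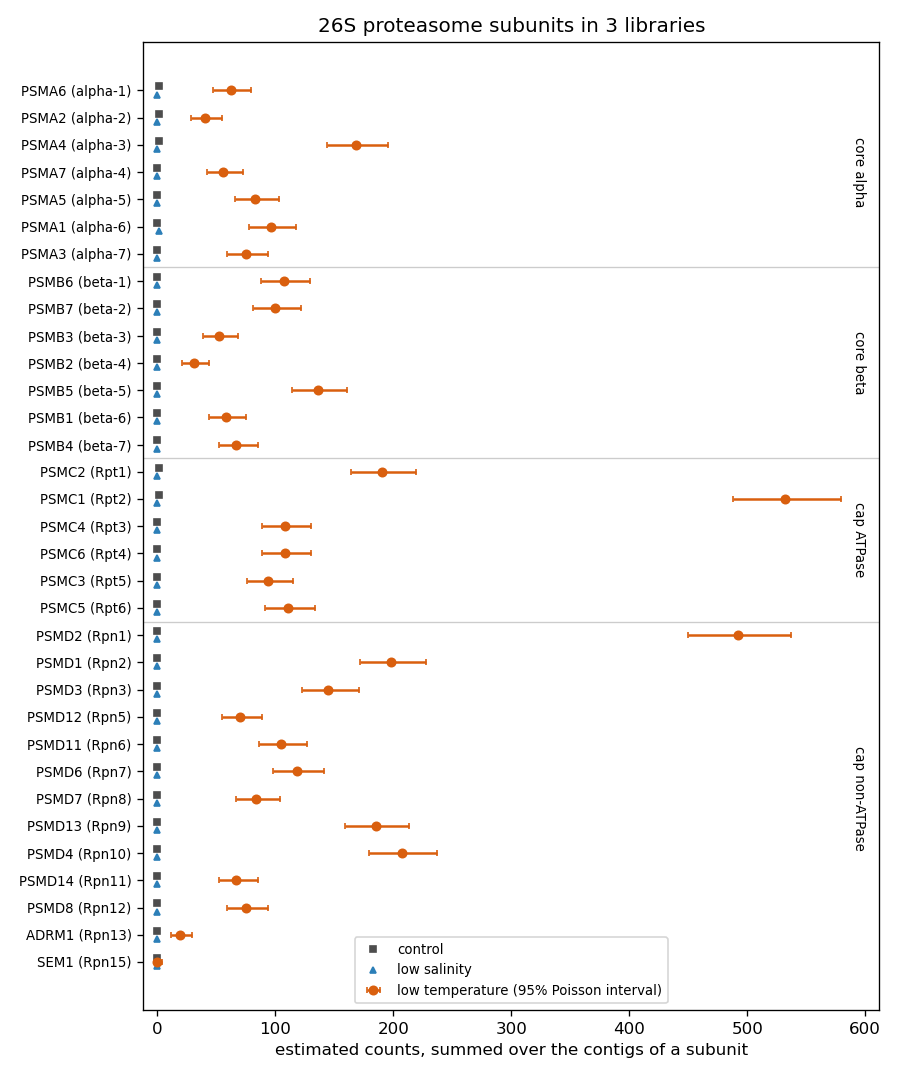
Estimated counts (x axis) for the 33 subunits of the 26S proteasome (y axis, with systematic names), summed over the contigs of each subunit, with exact Poisson 95% intervals for low temperature. All subunits with a contig lie between 19 and 532 in low temperature, and none has more than 1 count in control or low salinity, while SEM1, which has no contig, is drawn at 0.

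The alpha subunits form the outer rings of the barrel, whose tails gate the entry. PSMA4 had 168 low-temperature counts (exact Poisson 95% interval 144 to 195), 1 control count and 0 low-salinity counts, the highest count of the alpha ring. PSMA1 followed with 96 counts, against 0 in control and 1 in low salinity, and PSMA5 with 83 over 2 contigs, against 0 in both. PSMA3 had 75, PSMA6 62 and PSMA7 56 counts in low temperature, and of these PSMA6 had 1 count in control. PSMA2 had the lowest low-temperature count of the ring at 40 (28.6 to 54.5), with 1 count in control. The 7 subunits lay within 4.2-fold of each other in low temperature, and the intervals of PSMA2 and PSMA4 did not overlap.

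The beta subunits form the inner rings, and PSMB6, PSMB7 and PSMB5 carry the active sites (beta-1, beta-2 and beta-5). All 7 beta subunits were at 0 in control and in low salinity. The 3 catalytic positions had the 3 highest low-temperature counts of the ring, with 136 for PSMB5 (114 to 161), 107 for PSMB6 (87.7 to 129) and 100 for the beta-2 position (81.4 to 122). The others had 67 for PSMB4, 58 for PSMB1, 52 for PSMB3 and 31 for PSMB2 (21.1 to 44.0), and the interval of each of these 4 except PSMB4 lay below those of the catalytic positions, while that of PSMB4 reached 85.1. This order was noticed after the values were seen. PSMB5 was at least 135-fold higher in low temperature than in control, where a library at 0 is set to 3 counts and TMM scaling is used, as for every bound below. Such bounds shift with the scaling as the summed ratio does, and are lower by total counts or upper quartiles. They leave out the counting interval of the low-temperature count, and the exact Poisson 95% upper limit of a 0 is 3.69, above the floor. The words at least hold only under these settings.

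Names in this ring needed care. The beta-2 contig was named PSMB10 and a second contig of the PSMB5 gene, with 8 counts, was named PSMB8, after subunits of the vertebrate immunoproteasome. Both contigs also carried the KEGG numbers of the constitutive subunits, PSMB7 and PSMB5. They are counted here under those constitutive positions.

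The 6 ATPases of the cap, PSMC1 to PSMC6, form the ring that unfolds the substrate. PSMC1 (Rpt2) had 532 low-temperature counts over 3 contigs (488 to 579) against 1 in control and 0 in low salinity. Most of them fell on TRINITY_DN31856_c0_g1_i1, which had 464 and was at 0 in both other libraries, at least 460-fold higher than control. This contig had the highest low-temperature count of all 152 members. PSMC2 followed with 190 over 2 contigs and 1 count in control. The remaining 4 ATPases were at 0 in control and low salinity and close together in low temperature, with 111 for PSMC5, 108 for PSMC4, 108 for PSMC6 and 94 for PSMC3, whose intervals all overlapped.

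The non-ATPase subunits of the cap include the scaffolds, the ubiquitin receptors and a deubiquitinase. No contig of the 12 detected subunits had a count in control or in low salinity. The scaffold PSMD2 (Rpn1) had 492 low-temperature counts (449 to 537), spread over contigs of 1 assembled gene, at least 488-fold higher than control. The other large scaffold, PSMD1 (Rpn2), had 198 over 3 contigs. The ubiquitin receptor Rpn10, listed under its Drosophila name Pros54, had 207 (180 to 237), and the second receptor, ADRM1 (Rpn13), which the rule did not select, had 19 (11.4 to 29.7). PSMD14 (Rpn11), the deubiquitinase that removes the tag as the substrate enters, had 67 counts in low temperature. Of the lid subunits PSMD13 had 185, PSMD3 145, PSMD6 118, PSMD11 105, PSMD7 84, PSMD8 75 and PSMD12 70, so that all 12 detected subunits except ADRM1 had 50 counts or more.

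Over the whole particle, the 14 core subunits summed to 1131 low-temperature counts with a median of 71 per subunit, and the 18 detected cap subunits to 2908 with a median of 109.5. The ranges overlapped, at 31 to 168 for the core and 19 to 532 for the cap. Cap subunits such as PSMD1 and PSMD2 are much longer proteins than core subunits, and without lengths the 2 sums cannot be compared as levels.

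Factors around the proteasome were also counted almost only in low temperature. The core maturation factor POMP had 37 low-temperature counts, the cap assembly chaperone PSMD5 36, the nuclear activator PSME3 32 and the proteasome stabiliser KIAA0368 (ECM29) 26. A contig described as Cut8, which tethers the proteasome to the nucleus in fission yeast, had 31 counts in low temperature and 1 in low salinity. The activator PSME4 had 14 over 2 contigs, with 1 count in control. The 8 contigs of this role held 1.93% of the members' low-temperature counts.

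The 8 E1 contigs summed to 534 low-temperature counts, 1 control count and 0 low-salinity counts. UBA1, the general ubiquitin-activating enzyme, had 258 over 4 contigs and was at 0 in control and in low salinity. UBA2 and SAE1, which together activate the ubiquitin-like modifier SUMO, had 211 and 48, with 1 control count on UBA2. UBA3, a subunit of the enzyme that activates NEDD8, had 17. Apart from that 1 count, no E1 contig had a count outside low temperature.

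The 15 E2 contigs summed to 573 low-temperature counts against 1 in control and 0 in low salinity. They include 1 unnamed contig with 7 counts that the words of its description placed here, although that description is of an E3 ligase. The highest count was that of eff (effete), the Drosophila name of a conjugating enzyme of the UBE2D family, which had 201 over 3 contigs of 1 gene. UBE2B had 70, UBE2Q1 45, UBE2V2 44, CDC34 43, UBE2G1 41 and UBE2N 35, and the only control count of the role was on UBE2G1. UBE2N and UBE2V2, which pair to build chains linked through lysine 63 in yeast and mammals, had overlapping intervals (24.4 to 48.7 and 32.0 to 59.1). The NEDD8-conjugating enzyme UBE2M had 13. The giant enzyme BIRC6 had 25 over the 2 contigs that the rule selected. Further contigs named BIRC6, outside the members, had 49 (with 1 count in control) and 6 in low temperature.

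Ligases and their partners were the most numerous role, with 34 contigs and 1203 low-temperature counts, but most contigs were low. Their median was 19 counts, against 90 for the cap ATPases and 60 for the alpha subunits, and 12 of the 34 passed the mean-count filter. HUWE1, a very large HECT ligase, had 305 counts over 5 selected contigs of 4 assembled genes, and the contig with the most had 197. Contigs named HUWE1 outside the members had 14 and 11 in low temperature. RNF31, a ligase of linear ubiquitin chains, had 117 over 2 contigs, and UBE4B, which extends chains, 109 over 2. SKP1, the adaptor of SCF ligases, had 89. Control counts fell on RNF41 and HERC4 (1 each) and low-salinity counts on RNF31 and UBE3A (1 each), among others. Several contigs of 1 name can be pieces of 1 gene, so contigs are not counted as genes here. Among the lower ligases, the tested SYVN1, which acts at the endoplasmic reticulum, had 35 low-temperature counts.

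KLHL20, an adaptor of a cullin ligase, is a member whose identity is in doubt. Its contig with 102 low-temperature counts, TRINITY_DN188_c0_g1_i9, is listed 4 times in the count table, and the other listings name the glycolytic enzyme PKM. Other contigs of the same assembled gene are also named PKM. The unnamed member TRINITY_DN42692_c0_g1_i1, with 94 counts in low temperature and 1 in low salinity, is likewise listed as TANC2.

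The 18 deubiquitinase contigs summed to 1261 counts in low temperature, 1 in control and 1 in low salinity. USP47 had 254 counts in low temperature (224 to 287) and the only control count of the role. USP2 had 248 over 2 assembled genes, at 0 in both other libraries, and USP5, which recycles free ubiquitin chains, had 163 with the only low-salinity count of the role. UCHL3 had 154, USP10 150 over 2 contigs, and the proteasome-bound enzymes USP14 and UCHL5 had 112 and 50. The lowest was TRINITY_DN70508_c0_g1_i1, a contig of USP7, with 5 counts, and the 3 contigs of USP7 summed to 21.

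Ubiquitin-like proteins had few counts. HERPUD1, a membrane protein of the endoplasmic reticulum, had 57 low-temperature counts, URM1 23, the autophagy modifier ATG12 19, and UBL7 17 with 1 count in control. Among the other members, DNAJC2, a ribosome-bound chaperone selected through a phrase on ubiquitin binding, had 82, the segregase VCP (1 contig selected) 72, the USP cofactor WDR48 42 and the VCP partner UFD1L 40.

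The counts of members in control and low salinity were all single counts. In control 14 contigs had exactly 1 count and in low salinity 7 had exactly 1, and no contig had a count in both. The 14 lay throughout the range of low-temperature counts, from 7 to 322 with a median of 41.5, against 37 for members at 0 in control. The 7 with a low-salinity count had a low-temperature median of 76. Of the 14 control counts 5 fell on core or cap subunits, as did 1 of the 7 low-salinity counts. UBAC1, a part of a ubiquitin ligase with 38 low-temperature counts, held another control count. The plot of ranked contigs shows where all 21 lie.

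**Figure D3:**
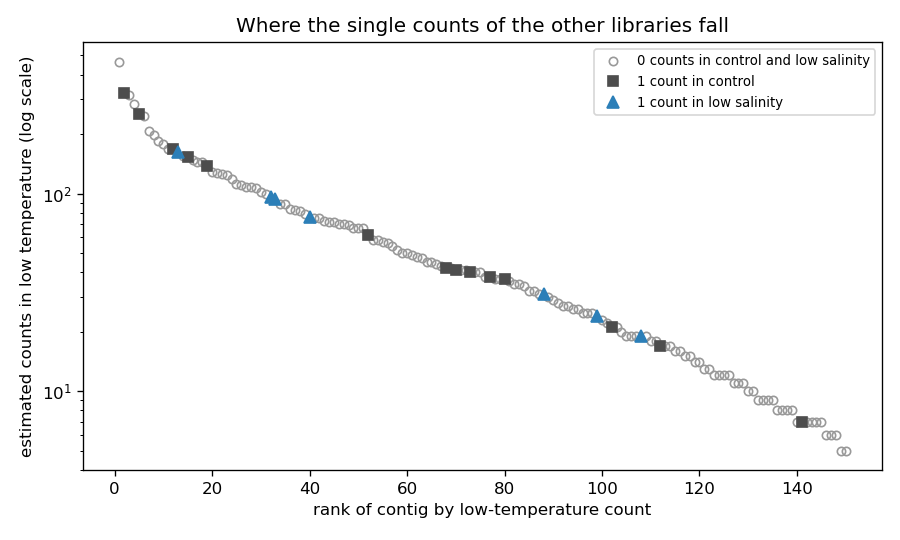
Estimated low-temperature counts (y axis, log scale) of the 150 members with a count there, ranked from highest to lowest (x axis), with filled marks for contigs that had 1 count in control (squares) or in low salinity (triangles). The squares run from 322 down to 7 and the triangles from 163 down to 19.

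Other annotated contigs without mobile-element text were not limited to single counts. Of 4986 such contigs with 5 to 464 low-temperature counts, the range of the members, 603 (12.1%) had a count in control, and for 342 of these it was more than 1, with a maximum of 10361. Members with a control count were 14 of 150 (9.33%), with a maximum of 1. What share of this wider class belongs to mobile elements without such text was not tested.

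The comparison of low salinity with control asks whether animals brought to 8 PSU differ from those at 35 PSU. For the ubiquitin and proteasome system these libraries held too few counts to show a difference. The 7 counts in low salinity and 14 in control gave a scaled ratio of 1.01 with an interval from 0.344 to 2.67, and 0.747 by total counts. Of the 89 tested members, 5 were 2-fold or more higher in low salinity (background 5.62%) and 11 at least 2-fold lower (background 13.3%). Each of these 16 rested on 1 count against 0, their shares were near the background, and with a prior count of 2 none passed. A floor of 3 counts corresponds to 0.00014% of the control library and 0.000209% of the low-salinity library for a contig at 0.

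The comparison of low salinity with low temperature gave the mirror of the first one, and both use the low-temperature library. The summed members were 2002-fold lower in low salinity (exact conditional 95% interval 971 to 4980). This too depended on the scaling, with 699 by total counts, 313 by upper quartiles and 3968 by the median of ratios. All 89 tested members passed as lower in low salinity, against 49.9% of tested contigs, and none as higher, against 41.8%. As in the first comparison, the filter fixed this direction. The median log2 ratio was -7.93 for members and -0.96 for all tested contigs.

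In the authors' deposited table of low temperature against control, which lists 1 contig per assembled gene, 128 members were present. All 128 had an adjusted p under 0.05 and a higher value in low temperature, against 55.8% of the genes listed with an adjusted p, and none was lower, against 23.4%, with log2 fold changes from 6.06 to 12.65. The authors' deposited table of low salinity against control called none of the 128, against 1.55% higher and 1.33% lower among all, and the lowest adjusted p of a member was 0.213. In the authors' deposited table of low salinity against low temperature all 128 were called lower, against 56.2%, and none higher, against 22.3%. No member had more than 1 count in control or low salinity, so the counts fixed the direction of both comparisons with low temperature. No source used here gives the model behind these p-values, and with 1 library per condition they hold no replicate spread.

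The deposited fold changes of members with single counts differed with the normalized value and the number of listings. A control count of 1 became 0.431 in the authors' normalized values. For all 9 members with that value, the authors' deposited table gave a log2 fold change of low salinity to control of exactly 0. The other 3 members with 1 control count, USP47, UBA2 and PSMA6, were listed more than once in the count table, had normalized values above 0.5 and were given negative log2 fold changes (-3.45, -2.45 and -2.45 in the authors' deposited table). A low-salinity count of 1 became at least 0.850, and all 7 such members had positive values in the authors' deposited table. The authors' deposited table thus showed 7 members above 0 and 3 below, where the counts showed 7 contigs with a count in low salinity and 12 in control.

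Repeated listing also raised the low-temperature values, as the normalized value rose in proportion to the number of listings. A PSMA5 contig with 25 counts, listed 2 times, had a normalized value of 124. UCHL5, with 50 counts and listed 1 time, had the same value. Both had a log2 fold change of 9.43 in the authors' deposited table. Deposited values of contigs listed more than once thus rest on counts taken more than once. HUWE1 (TRINITY_DN63402_c0_g1_i12), listed 2 times, had 197 counts and a log2 fold change of 12.41 in the authors' deposited table, where PSMC1 (TRINITY_DN31856_c0_g1_i1), listed 1 time with 464 counts, had 12.65. USP47, listed 4 times and with 1 count in control, had the lowest adjusted p of the members in the authors' deposited table, 2.2e-44, while that PSMC1 contig had 1.09e-16.

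Because the deposited gene-level tables keep the first listed contig of a gene, they carried 76.4% of the members' low-temperature counts. PSMD2 was represented by a contig with 40 of its 492 counts, and eff by 25 of 201. The PSMB5 gene was represented by the contig named PSMB8, with 8 of 136 counts, so the constitutive name did not appear there. For KLHL20, USP10 and VCP the representative was a contig outside the members.

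The best database match of a member was an arthropod for 102 of the 152 contigs, a ray-finned fish for 10 and another organism for 40. The 10 with a fish match had 923 counts in low temperature, 1 in control and 1 in low salinity, and among them were USP10, UCHL3 and 2 of the PSMD2 contigs. These 2 PSMD2 contigs had 284 and 30 low-temperature counts, the former the highest of the gene. The other PSMD2 contigs of the same assembled gene matched arthropods (3, with 124, 40 and 14 counts) or another organism (1, with 0). A best match in fish was thus found beside arthropod matches within 1 gene, and whether any of these contigs came from the host was not tested.

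Other genes of protein turnover that the rule did not select were also highest in low temperature. A list of cullin, VCP, COP9, ligase, autophagy, cathepsin and calpain names, chosen with earlier results of these data known, held 71 contigs with 17 control, 5 low-salinity and 4377 low-temperature counts. Of these 37 were tested and all passed as higher in low temperature, against 49.6% of all tested contigs (43% passed as lower), but 62 of the 71 were at 0 in control, and such contigs can enter the test only through another library. Cathepsins, the lysosomal proteases, held 2703 of the low-temperature counts over 32 contigs, led by CTSC (TRINITY_DN131_c0_g1_i8) with 438. A further VCP contig (TRINITY_DN448_c0_g1_i4) had 408, the shuttle UBQLN1 174 and the calpain CAPN1 104, each at 0 in control and low salinity. The COP9 signalosome, which removes NEDD8 from cullins, had 235 low-temperature counts over 7 contigs and 3 in control. The list also held other ligases (12 contigs, 400 low-temperature counts), autophagy genes (4 contigs, 41) and cullin parts (4 contigs, 85, with 4 counts in control). No contig was named SUMO or UFM1.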

How the data were processed

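RNA was sequenced in 3 libraries, 1 per condition, on Ion Torrent S5 per the labels' protocols. FastQC 0.11.9, fastp 0.23.2 and Salmon 1.10.2 are named in the submitters' processing notes. No source used here names the assembler, annotation tool or build. The deposited count table holds the authors' estimated counts by transcript, as whole numbers. Repeated listings of a transcript carried the same counts and were used 1 time each. The authors' second table holds a normalized signal, 1 transcript per gene. Per the file headers, 3 tables of the authors' own comparisons give log2 fold changes, a test statistic score and p-values.

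Library sizes were scaled by TMM over all transcripts (edgeR 4.0.16, R 4.3.3). Log2 ratios of CPM used a prior count of 0.5, for transcripts averaging 10 counts or more, and a log2 ratio of 1 was the size rule. No test was run, since each condition has 1 library. Intervals are exact (Poisson, conditional binomial, Clopper-Pearson) at 95%, by SciPy 1.17.1, and cover counting error only, since amplified reads are not independent molecules. Bounds use a floor of 3 counts per library. The ratio code was tested on simulated Poisson counts in which few contigs changed, equally many up and down. In the real data most tested contigs differed, so the simulation does not test the scaling here.

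Members, roles and lists were chosen with earlier results of these data known. The rule for named genes took all core, cap and E1 members, the 5 members with most counts in each other role, any member with 3 counts in control or low salinity (none), and the highest and lowest tested member of each role. Other members named, such as those with single counts, were chosen after their values were seen. Roles follow names, then words of the description. Exceptions are Pros54 and the subunit census, which follow KEGG numbers, and PSMD5 and RBCK1, placed by known function. Alternatives covered scaling, filter, prior count, assembled genes and member definition. Some members that the rule names are not reported here, though sums over members and roles include them.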

Additional observations from a re-analysis of the deposited data

Results flagged for a closer look

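Contigs outside the members but in the same assembled genes held a signal in low temperature above that in control. The 21 such contigs had 1731 low-temperature counts, 3 control counts and 1 low-salinity count. The most abundant were a VCP contig (TRINITY_DN448_c0_g1_i4) with 408, a contig named UBP24 (TRINITY_DN613_c0_g1_i1), in the same gene as USP10, with 232, and a PKM contig (TRINITY_DN188_c0_g1_i26) with 231. Further PKM contigs of that gene, whose identity as KLHL20 is in doubt, had 158, 110, 71, 61, 31 and 29. The contigs named VCP were also counted in the list of other protein turnover genes above.

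Contigs with the KEGG pathway of ubiquitin mediated proteolysis that are neither members nor carry mobile-element text held a signal above control as well, with 744 low-temperature counts and 22 control counts over 26 contigs. Some of these counts lay on contigs with names of other proteins, such as SF3B2 (TRINITY_DN62898_c0_g1_i1, 104) and STOML2 (75). Whether the KEGG label fits such contigs was not tested. XIAP, an inhibitor of apoptosis with ligase activity, supplied 21 of the 22 control counts. XIAP had 60 counts in low temperature and 4 in low salinity. Its scaled ratio of low temperature to control was 8.50 (exact conditional 95% interval 5.09 to 14.7), and between 1.54 by upper quartiles and 25.6 with TMM factors from the tested contigs. Its ratio of low salinity to control was 0.384 (0.0957 to 1.14), an interval that holds 1.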

How the results depend on the processing

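No paired analysis was possible because each condition has 1 library, and no library could be left out. The tested members of the low-temperature comparison with control passed as higher in 89 of 89 cases, and the count stayed 89 by total counts, median of ratios and upper quartiles. Their number was 15 at a mean of 50 counts or more, 150 with no filter and 55 with members by name only, in this comparison and in low salinity against low temperature. For low salinity against control the 16 became 5 at that mean of 50, 0 with a prior count of 2, 9 with members by name only and 3 with the authors' normalized table. Fewer members were tested at the higher mean (15) and by name only (55). The members' share of low-temperature counts was 0.392% with every listed row, 0.203% with members by name only and 2.07% of annotated transcripts without mobile-element text. On that last denominator it was 0.00458% in control and 0.00407% in low salinity, and low salinity by name only was 0.000139%. The median of all tested log2 ratios of low temperature to control was 0.83 with TMM and 1.77 with the median of ratios, and changed sign to -1.04 with total counts and -1.54 with upper quartiles. It was 2.40 with TMM factors taken from the tested contigs alone, an alternative chosen after seeing the data. Of 592 values for 74 named members under alternatives, none reversed, and 11 (low salinity against control) no longer passed, all with a prior count of 2. With at most 1 count per member in control or low salinity, no alternative could have reversed a ratio to low temperature. Leaving out members also listed under a second protein name, likewise chosen after seeing the data, gave 87, 15 and 87. By assembled gene, 78 passed in each comparison with low temperature. In control and low salinity no member had more than 1 count, so single members cannot be compared between these libraries.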

Other observations

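Of the contigs in the count table, 5 had names in the form of calendar dates. Among them 1 was a member, 5-Mar (TRINITY_DN66679_c0_g1_i1), described by a RING-variant domain, with 9 low-temperature counts and none elsewhere.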
